A study of Mus musculus with 8 samples.

Results

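miR-221 and miR-222 are a pair of microRNAs made from neighbouring hairpins on mouse chromosome X, and they were followed here through all 8 small RNA libraries of a study of miR-210 and oxygen in mouse fibroblasts. Members were taken by name, as every microRNA feature called mmu-miR-221 or mmu-miR-222, on either arm of the hairpin. This gave 4 features, miR-221-3p, miR-221-5p, miR-222-3p and miR-222-5p, of 813 microRNA features and 2403 small RNA features in the deposited table. The cells were immortalized skin fibroblasts on a C57BL/6 background, carrying either the mir210lox/lox genotype (titled KO, and called so below) or the wild-type genotype (WT). Each genotype was kept for 24 h at 1% O2 (hypoxia) or at 21% O2 (normoxia), which made the 4 groups KO hypoxia, KO normoxia, WT hypoxia and WT normoxia with 2 libraries each, numbered 1 and 2. How the cells were immortalized, how a lox allele was recombined and whether each genotype is 1 line are not stated in the labels. Separate cultures are not stated for the libraries either, and their spread, on which every p-value rests, may be technical.

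As background, a microRNA hairpin is cut into a short duplex, and usually the strand of one arm is kept by an Argonaute protein as the guide while the other is degraded. The guide finds messenger RNAs mainly through its seed, the stretch from base 2 to base 8. miR-221 and miR-222 are transcribed together as a single precursor, carry the same seed on their 3p arms and are known for restraining the cell-cycle inhibitor p27 (Cdkn1b) and the receptor Kit, through which they favour proliferation in several cell types. Their transcription is known to respond to AP-1 and NF-kappaB, factors of growth and inflammatory signalling. No messenger RNA was measured here.

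The mature sequences below show what the pair shares and where it parts. They are RefSeq entries on GRCm38.p6, written 5′ to 3′ with the seed in capitals, for the 3p arms and for miR-1928, the only other mature microRNA among the 1679 of that table with the same seed. miR-1928 was not analysed here.
mmu-miR-221-3p: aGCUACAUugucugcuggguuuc
mmu-miR-222-3p: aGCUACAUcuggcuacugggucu
mmu-miR-1928: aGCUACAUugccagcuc
The 3p arms of miR-221 and miR-222 are identical over their first 8 bases and, laid side by side without gaps, at 11 of 23 positions. The 5p arm of miR-221 has another seed.
mmu-miR-221-5p: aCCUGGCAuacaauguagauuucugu

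The hairpins show where the counted stretches lie. Capitals mark the sequences that the deposited table lists for the 4 features, found in the RefSeq hairpins.
Mir221: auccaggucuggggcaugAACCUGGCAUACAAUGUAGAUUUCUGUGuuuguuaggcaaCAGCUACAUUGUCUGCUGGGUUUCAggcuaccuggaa
Mir222: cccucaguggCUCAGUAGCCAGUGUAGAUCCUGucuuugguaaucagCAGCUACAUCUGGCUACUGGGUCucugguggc
Mir221 lies at chrX:19146294-19146388 and Mir222 at chrX:19146893-19146971, both on the minus strand of GRCm38, with 504 bases between the hairpins. In GENCODE M21 no other gene overlaps the pair, and the nearest annotated gene on the higher side is Gm14636, a processed transcript of the same strand whose near end is 10010 bases away. The deposited table places miR-221-3p at 18723432 to 18723456 and miR-222-3p at 18724028 to 18724050 of chromosome X, which are not GRCm38 positions, and the sources used here do not name its build. The listed sequences carry extra flanking bases. Of 556 microRNA features with a RefSeq mature sequence of the same name, 522 (93.9%) were that sequence plus 1 base at each end. This holds for miR-221-3p and miR-221-5p, while miR-222-3p has 1 extra base at its 5′ end and 22 of the 23 RefSeq bases.

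Values are the authors' normalized read counts, with library totals between 8618630 and 12167438, of which microRNAs took 73.0% to 82.0%. miR-210-3p, the microRNA named in the genotype, held 10 and 32 in KO hypoxia, 23 and 14 in KO normoxia, 36738 and 39011 in WT hypoxia and 4786 and 8676 in WT normoxia, so the genotype titles and the measured microRNA go the same way in all 8 libraries. Fibroblast microRNAs (16 features of miR-21, miR-22, miR-143, miR-145, miR-152, miR-199 and miR-214) summed to 3436322 to 5613934 per library. Sums for other cell types were 100 to 290 over 7 epithelial features, 102 to 191 over 2 endothelial, 121 to 299 over 5 muscle, 571 to 1201 over 5 neural and melanocyte and 841 to 3078 over 6 haematopoietic features. KO hypoxia number 1 stood apart in ribosomal RNA, with 5.76% of its total against 1.69% to 2.88% in the others. Differences of the members, their ratios and their share that use it are therefore also given without it. Marker sums, likeness and the differences of other microRNAs are given only with it. In bulk samples, fewer cells of a type and less of an RNA per cell cannot be told apart.

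miR-221-3p, the guide arm, was among the most abundant microRNAs of these fibroblasts and the most variable of the 4 features. It held 47457 and 59094 normalized counts in KO hypoxia, 123642 and 53618 in KO normoxia, 101754 and 134450 in WT hypoxia, and 100322 and 51865 in WT normoxia. By its mean of 84025 over the 8 libraries it ranked 16th of 813 microRNA features. As a share of microRNA counts it took 0.674% and 0.662% in KO hypoxia, 1.90% and 0.677% in KO normoxia, 1.30% and 1.35% in WT hypoxia, and 1.30% and 0.561% in WT normoxia. The libraries thus lay at 2 levels, with 4 of them between 0.561% and 0.677% and 4 between 1.30% and 1.90%, and each normoxia group had 1 library at either level. The exact 95% binomial interval was 0.556% to 0.566% for the lowest share and 1.89% to 1.91% for the highest, so counting error, which is all these intervals cover, is small beside the gap.

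miR-222-3p shares the seed and the precursor but was less abundant and steadier. It held 14855 and 16801 normalized counts in KO hypoxia, 15086 and 9718 in KO normoxia, 11816 and 12873 in WT hypoxia, and 12624 and 11690 in WT normoxia. Its mean of 13183 ranked 56th among the 813 microRNA features. The highest library was 1.73 times the lowest for miR-222-3p and 2.83 times for miR-221-3p. The low value of miR-222-3p belonged to KO normoxia number 2, which was also in the lower level of miR-221-3p, but the high values of the guide arms were in different libraries, WT hypoxia number 2 for miR-221-3p and KO hypoxia number 2 for miR-222-3p.

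The 5p arms, taken to be the passenger strands, were present at low levels. miR-221-5p held 434 and 629 in KO hypoxia, 573 and 517 in KO normoxia, 444 and 508 in WT hypoxia, and 528 and 398 in WT normoxia. miR-222-5p held 104 and 85 in KO hypoxia, 108 and 74 in KO normoxia, 79 and 74 in WT hypoxia, and 86 and 71 in WT normoxia. Neither 5p arm showed the 2 levels of miR-221-3p, and their highest libraries were 1.58 and 1.52 times their lowest. With counts this small for miR-222-5p, counting alone gives its lowest share of microRNA counts (0.000741%, WT hypoxia number 2) an exact 95% interval of 0.000582% to 0.000931%.

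**Figure D1:**
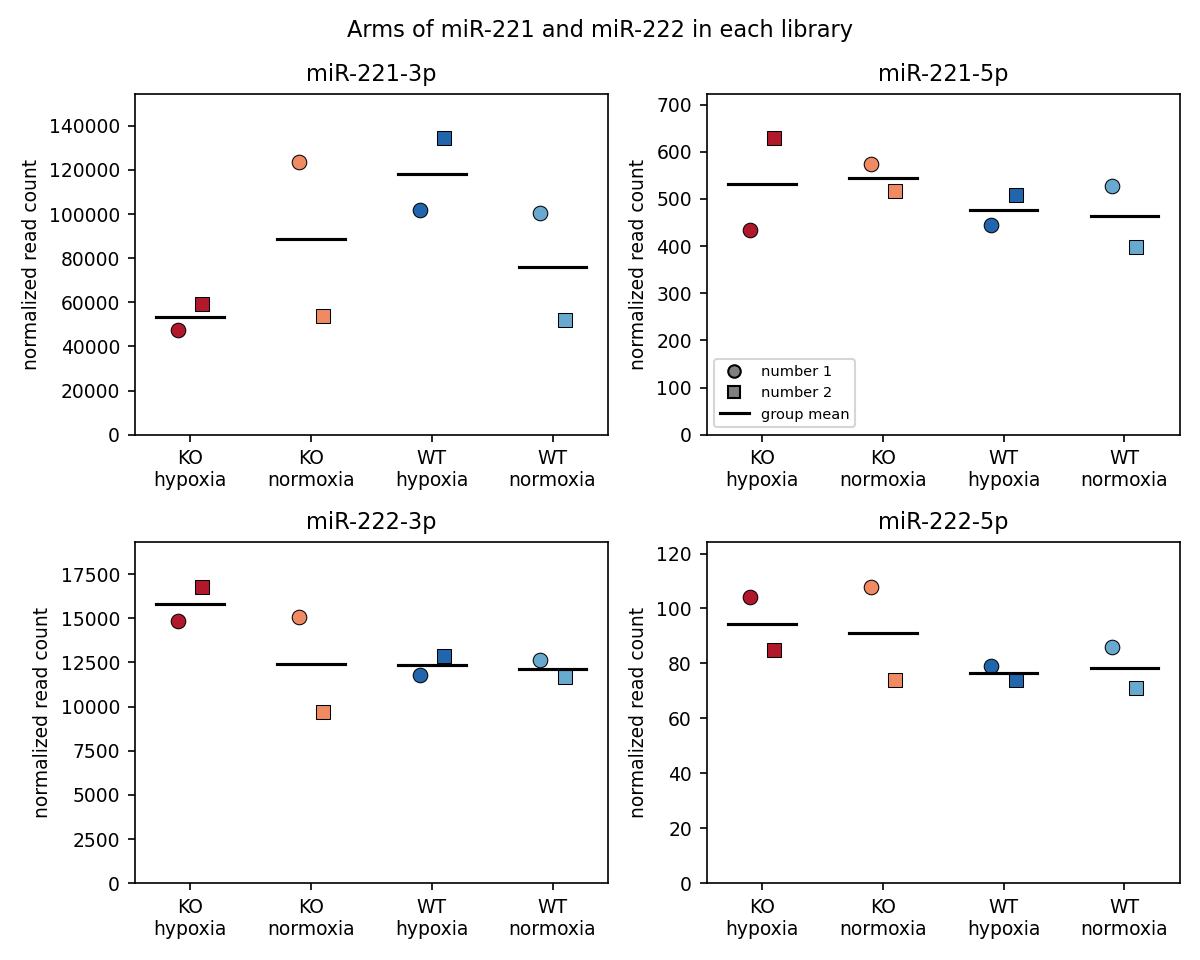
Normalized read counts (vertical axes, each from 0) of the 4 arms in the 8 libraries by group, with circles for number 1, squares for number 2 and a bar at the group mean. miR-221-3p lies at 47457 and 59094 in KO hypoxia and at 101754 and 134450 in WT hypoxia, and its libraries lie far apart in both normoxia groups, while the other 3 arms stay within 1.73-fold over all libraries.

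The genotypes were compared first in hypoxia, where WT cells held the most miR-210-3p and KO cells nearly none. miR-221-3p averaged 53276 ± 8229 in KO hypoxia and 118102 ± 23120 in WT hypoxia (SD, n = 2 each). The libraries of the groups did not overlap, and the difference was −1.14 on the log2 scale (SE 0.44, 95% interval −2.13 to −0.16), or 0.453 times the WT level. No label says that libraries of the same number belong together. Within number 1 the difference was −1.10 and within number 2 it was −1.19. It did not pass the test over all 1540 features (limma on log2(value + 1) with Benjamini-Hochberg adjustment, unadjusted p = 0.0272, adjusted p = 0.545), in which it ranked 75th by p-value. Groups that do not overlap with KO lower were found for 14.5% of the 579 microRNA features tested, and an unadjusted p under 0.05 for 9.03% of all features, so neither is rare in this comparison. Without KO hypoxia number 1 the difference was −0.98 (SE 0.56, limma unadjusted p = 0.110), and without WT hypoxia number 2 it was −0.94 (SE 0.57, limma unadjusted p = 0.137).

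Over the same libraries miR-222-3p stood the other way. It averaged 15828 ± 1376 in KO hypoxia and 12345 ± 747 in WT hypoxia (SD, n = 2 each), a log2 difference of 0.36 (SE 0.28, limma adjusted p = 0.912) with no overlap. Groups that do not overlap with KO higher were found for 20.9% of microRNA features. miR-222-5p, at 94.5 ± 13.4 in KO hypoxia and 76.5 ± 3.54 in WT hypoxia, gave 0.29 (SE 0.33, limma adjusted p = 0.967), again with no overlap. miR-221-5p overlapped between the groups, at 531.5 ± 138 in KO hypoxia and 476 ± 45.3 in WT hypoxia, with a log2 difference of 0.14 (SE 0.30). Leaving out KO hypoxia number 1 gave differences of 0.45 for miR-222-3p, 0.15 for miR-222-5p and 0.40 for miR-221-5p, so that 1 library moved both 5p arms by over 1.5 times. Without KO hypoxia number 2 miR-221-5p gave −0.13. Of the 4 arms 0 passed in this comparison, against 0.13% of all features, and 1 (miR-221-3p) had an unadjusted p under 0.05. The summed haematopoietic markers also separated these groups, at 841 to 1550 in KO hypoxia and 1579 to 3078 in WT hypoxia, with 4 of 4 tested members below 0. So did the endothelial markers, at 117 to 145 in KO hypoxia and 153 to 174 in WT hypoxia, with 2 of 2 tested members below 0. None of the features of either list was at 0 in all libraries. The other marker lists had overlapping sums, but most of their tested features were below 0 too. These were 3 of 3 neural and melanocyte, 11 of 16 fibroblast, 3 of 5 epithelial and 2 of 3 muscle features. Among single microRNA features, 14.5% did not overlap with KO lower, and no such share was computed for sums. The part of these marker differences in the values of miR-221-3p was not tested.

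In normoxia the genotypes were not told apart by any arm. miR-221-3p averaged 88630 ± 49514 in KO normoxia and 76094 ± 34264 in WT normoxia (SD, n = 2 each), a log2 difference of 0.17 with an interval of −0.81 to 1.16, whose sign turned when KO normoxia number 1 (−0.43) or WT normoxia number 2 (−0.30) was left out. miR-222-3p averaged 12402 ± 3796 in KO normoxia and 12157 ± 660 in WT normoxia, and miR-221-5p 545 ± 39.6 and 463 ± 91.9 in the same order. miR-222-5p averaged 91 ± 24.0 in KO normoxia and 78.5 ± 10.6 in WT normoxia. The groups overlapped for all 4 arms, adjusted p-values ran from 0.785 to 0.993 (limma), and 0 of 4 passed or had an unadjusted p under 0.05, against 0.0649% and 13.4% of all features.

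The response to low oxygen was then examined within each genotype. In WT cells miR-221-3p averaged 118102 ± 23120 in hypoxia and 76094 ± 34264 in normoxia, a log2 difference of 0.70 (SE 0.44, 95% interval −0.29 to 1.68, limma adjusted p = 1.00). Its groups did not overlap, as for 7.94% of microRNA features higher in hypoxia, but only by the margin between 101754 in WT hypoxia number 1 and 100322 in WT normoxia number 1. The difference was 0.020 within number 1 and 1.37 within number 2. It was 0.22 without WT normoxia number 2 and 1.17 without WT normoxia number 1 (limma unadjusted p = 0.0479, adjusted p = 0.992). For miR-222-3p, with 12345 ± 747 in hypoxia and 12157 ± 660 in normoxia, the interval of the difference was −0.61 to 0.65. For miR-221-5p it was −0.61 to 0.72, and for miR-222-5p −0.77 to 0.71. Of the 4 arms 0 passed the test or had an unadjusted p under 0.05, against 0% and 1.3% of all features.

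In KO cells miR-221-3p averaged 53276 ± 8229 in hypoxia and 88630 ± 49514 in normoxia, a log2 difference of −0.62 (SE 0.44, 95% interval −1.60 to 0.36, limma adjusted p = 0.901). The groups overlapped, since KO normoxia number 2 lay with the hypoxia libraries. The difference was −1.38 for number 1 and 0.14 for number 2. Without KO normoxia number 1 the difference was −0.018 and without KO normoxia number 2 it was −1.22 (limma unadjusted p = 0.0261, adjusted p = 0.930). miR-222-3p, with 15828 ± 1376 in hypoxia and 12402 ± 3796 in normoxia, gave 0.38 (SE 0.28, limma adjusted p = 0.901). This too turned on the normoxia libraries, at 0.70 without KO normoxia number 1 (limma unadjusted p = 0.0378, adjusted p = 0.335) and 0.07 without KO normoxia number 2. The 5p arms gave −0.06 (SE 0.30) for miR-221-5p and 0.07 (SE 0.33) for miR-222-5p. With KO hypoxia number 1 left out, the differences were −0.46 for miR-221-3p, 0.47 for miR-222-3p, 0.21 for miR-221-5p and −0.07 for miR-222-5p. Again 0 of 4 arms passed or had an unadjusted p under 0.05, against 0% and 5.39% of all features.

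The difference between these responses was tested directly, as the KO change minus the WT change. For miR-221-3p it was −1.32 (SE 0.62, 95% interval −2.71 to 0.074, limma unadjusted p = 0.0610, adjusted p = 1.00), the 45th of 1540 features by p-value. For miR-222-3p it was 0.36 (SE 0.40), with an interval of −0.53 to 1.26, and it was 0.68 without KO normoxia number 1 and 0.04 without KO normoxia number 2. The 5p arms gave −0.11 (SE 0.42) for miR-221-5p and 0.10 (SE 0.47) for miR-222-5p. No arm of the 4 passed or had an unadjusted p under 0.05, against 0% and 2.4% of all features. The value for miR-221-3p moved to −0.72 without KO normoxia number 1, −0.84 without WT normoxia number 2, −1.79 without WT normoxia number 1 (limma unadjusted p = 0.0241, adjusted p = 0.993) and −1.92 without KO normoxia number 2 (limma unadjusted p = 0.0110, adjusted p = 1.00). When KO hypoxia number 1 was left out, the values were −1.16 for miR-221-3p, 0.45 for miR-222-3p, 0.16 for miR-221-5p and −0.04 for miR-222-5p. Averaged over both oxygen levels, KO minus WT was −0.48 (SE 0.31) for miR-221-3p, 0.18 (SE 0.20) for miR-222-3p, 0.19 (SE 0.21) for miR-221-5p and 0.24 (SE 0.23) for miR-222-5p, with limma adjusted p-values from 0.546 to 0.735, 0 of 4 passing and 0 of 4 with an unadjusted p under 0.05, against 0.13% and 17.8% of all features. Without KO normoxia number 1 these averages were −0.79 for miR-221-3p (limma unadjusted p = 0.0273, adjusted p = 0.185) and 0.02 for miR-222-3p, and without KO normoxia number 2 they were −0.18 and 0.33. The averages without KO hypoxia number 1 were −0.41 for miR-221-3p, 0.22 for miR-222-3p, 0.33 for miR-221-5p and 0.17 for miR-222-5p. Averaged over both genotypes, hypoxia minus normoxia was 0.04 (SE 0.31) for miR-221-3p, 0.20 (SE 0.20) for miR-222-3p, −0.0040 (SE 0.21) for miR-221-5p and 0.02 (SE 0.23) for miR-222-5p (limma adjusted p = 0.998 for each, 0 of 4 passing and 0 of 4 with an unadjusted p under 0.05, against 0% and 3.57% of all features). Without KO hypoxia number 1 these were 0.12, 0.25, 0.13 and −0.05 in the same order, and miR-222-3p gave 0.36 without KO normoxia number 1 and 0.04 without KO normoxia number 2.

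**Figure D2:**
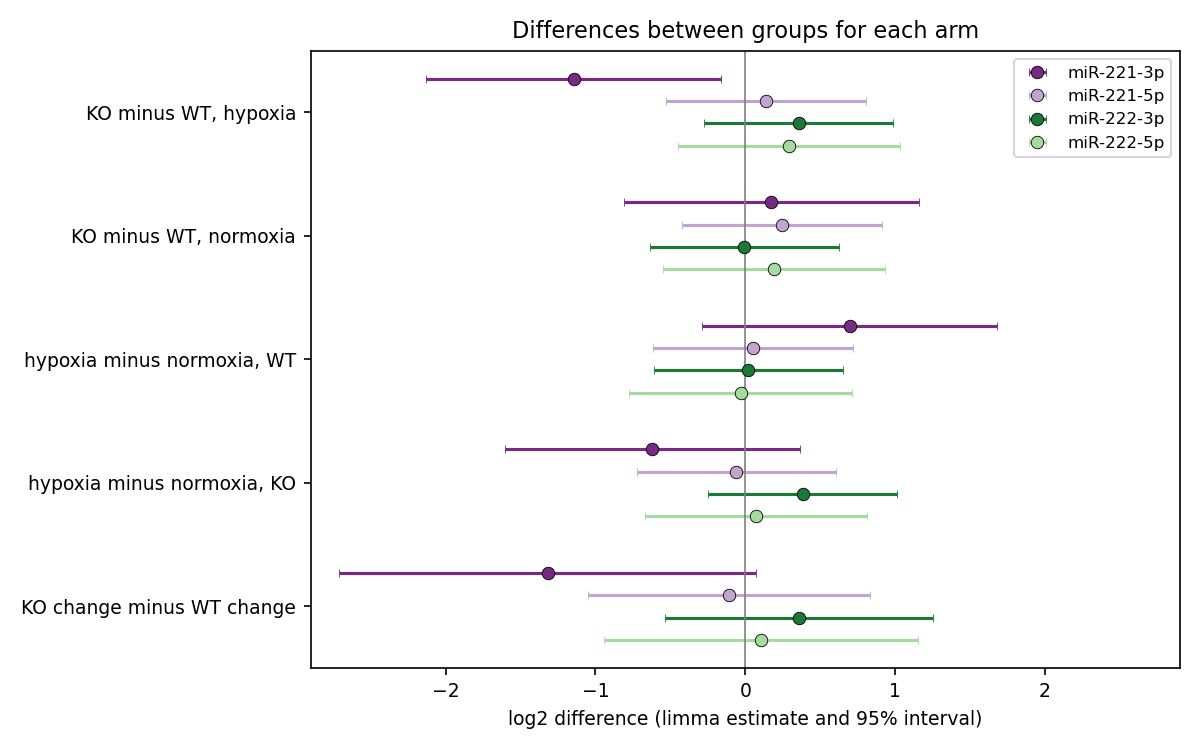
Log2 differences (horizontal axis, limma estimates as points with 95% intervals as bars) of the 4 arms in 5 comparisons, named on the vertical axis. The interval of miR-221-3p leaves 0 outside in KO minus WT in hypoxia (−2.13 to −0.16), and every other interval drawn includes 0.

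Ratios taken within a library do not depend on a factor applied to the whole library, and they set miR-221-3p against its sister and against its own passenger arm. They can depend on a normalization of another form, and that of the authors is not named. With quantile normalization, KO minus WT in hypoxia was −0.77 for miR-221-3p and 0.33 for miR-222-3p, beside −1.14 and 0.36 in the main fit. miR-221-3p over miR-222-3p was 3.19 and 3.52 in KO hypoxia, 8.20 and 5.52 in KO normoxia, 8.61 and 10.4 in WT hypoxia, and 7.95 and 4.44 in WT normoxia. The KO hypoxia libraries were the 2 lowest of the 8 and the WT hypoxia libraries the 2 highest. On the log2 scale the ratio averaged 1.75 ± 0.10 in KO hypoxia and 3.25 ± 0.20 in WT hypoxia (SD, n = 2 each), a difference of −1.50 for which an exact permutation test of 2 against 2 gives 0.333, the smallest p this design allows. KO hypoxia number 2 alone had a log2 ratio of 1.81. Over both oxygen levels the log2 ratio averaged 2.25 ± 0.63 in KO and 2.91 ± 0.53 in WT (SD, n = 4 each), a difference that did not pass (exact two-sided permutation test, p = 0.171, adjusted p = 0.533 over 8 tests of ratios and shares), and was −0.47 without KO hypoxia number 1.

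miR-221-3p over miR-221-5p followed the same libraries. The ratio was 109 and 93.8 in KO hypoxia, 215 and 104 in KO normoxia, 229 and 264 in WT hypoxia, and 190 and 130 in WT normoxia. Here 3 of 4 KO libraries lay below every WT library, and the exception was KO normoxia number 1. The log2 ratio averaged 6.94 ± 0.55 in KO and 7.62 ± 0.44 in WT (SD, n = 4 each; exact two-sided permutation test, p = 0.0857, adjusted p = 0.533), and the difference was −0.68, or −0.62 without KO hypoxia number 1. The passenger arm, cut from the same hairpin, did not show the 2 levels of the guide arm.

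miR-222 showed a narrower spread between its arms. miR-222-3p over miR-222-5p was 141 and 195 in KO hypoxia, 138 and 130 in KO normoxia, 148 and 172 in WT hypoxia, and 145 and 162 in WT normoxia. For miR-222 too, 3 of 4 KO libraries lay below every WT library, with KO hypoxia number 2 the exception. That count is thus not particular to miR-221. The log2 ratio of the miR-222 arms averaged 7.22 ± 0.26 in KO and 7.29 ± 0.11 in WT (exact two-sided permutation test, n = 4 each, p = 0.657, adjusted p = 1.00). By oxygen, hypoxia minus normoxia was 0.18 for this ratio (p = 0.200), 0.042 for miR-221-3p over miR-221-5p (p = 0.857) and −0.16 for miR-221-3p over miR-222-3p (p = 0.743), with adjusted p-values of 0.533, 1.00 and 1.00 in exact permutation tests. Without KO hypoxia number 1 these differences by oxygen were 0.25, 0.22 and 0.11, and the difference of the miR-222 arm ratio by genotype was −0.04, beside −0.07 with it.

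**Figure D3:**
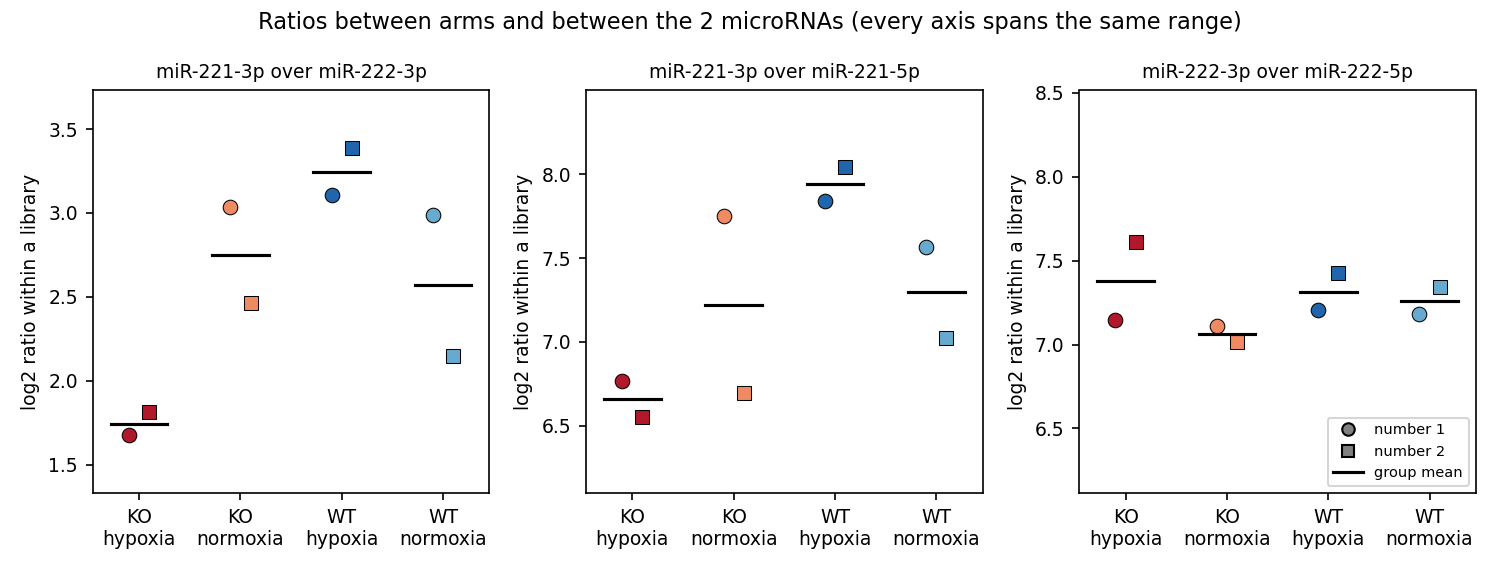
Log2 ratios within each library (vertical axes, all spanning the same range) of miR-221-3p to miR-222-3p, of miR-221-3p to miR-221-5p and of miR-222-3p to miR-222-5p, with circles for number 1, squares for number 2 and a bar at the group mean. In the left panel KO hypoxia averages 1.75 and WT hypoxia 3.25, while in the right panel the 4 group means lie between 7.07 and 7.38.

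The 4 arms together took 0.892% and 0.858% of microRNA counts in KO hypoxia, 2.15% and 0.807% in KO normoxia, 1.46% and 1.48% in WT hypoxia, and 1.47% and 0.692% in WT normoxia. The exact 95% interval was 0.687% to 0.698% for the lowest library and 2.14% to 2.16% for the highest. The share averaged 1.18% ± 0.65 in KO and 1.28% ± 0.39 in WT (SD, n = 4 each; exact permutation test, p = 1.00). It averaged 1.17% ± 0.34 in hypoxia and 1.28% ± 0.67 in normoxia (exact permutation test, n = 4 each, p = 0.943, adjusted p = 1.00). Without KO hypoxia number 1 the difference was −0.0057 percentage points by genotype and −0.011 by oxygen, beside −0.10 and −0.11 with it. Since miR-221-3p made up most of the sum, the share moved with it.

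The libraries of a group differed more for miR-221-3p than for its sister. The gap between number 1 and number 2 on the log2 scale was 0.32 in KO hypoxia, 1.21 in KO normoxia, 0.40 in WT hypoxia and 0.95 in WT normoxia for miR-221-3p. For miR-222-3p it was 0.18, 0.63, 0.12 and 0.11 in the same groups, and the medians over the 152 microRNA features of mean at least 1000 were 0.48, 0.40, 0.56 and 0.46. The SD within groups was 0.57 for miR-221-3p, exceeded by 33 of those 152 features, and 0.24 for miR-222-3p, exceeded by 120. Of the 15 microRNA features more abundant than miR-221-3p, 3 had a larger SD within groups, namely miR-143-3p (0.59), miR-199a-3p (0.62) and miR-199b-3p (0.62). The miR-199 features had nearly the same mean, at 151860 and 151816, and may not be separate measurements.

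**Figure D4:**
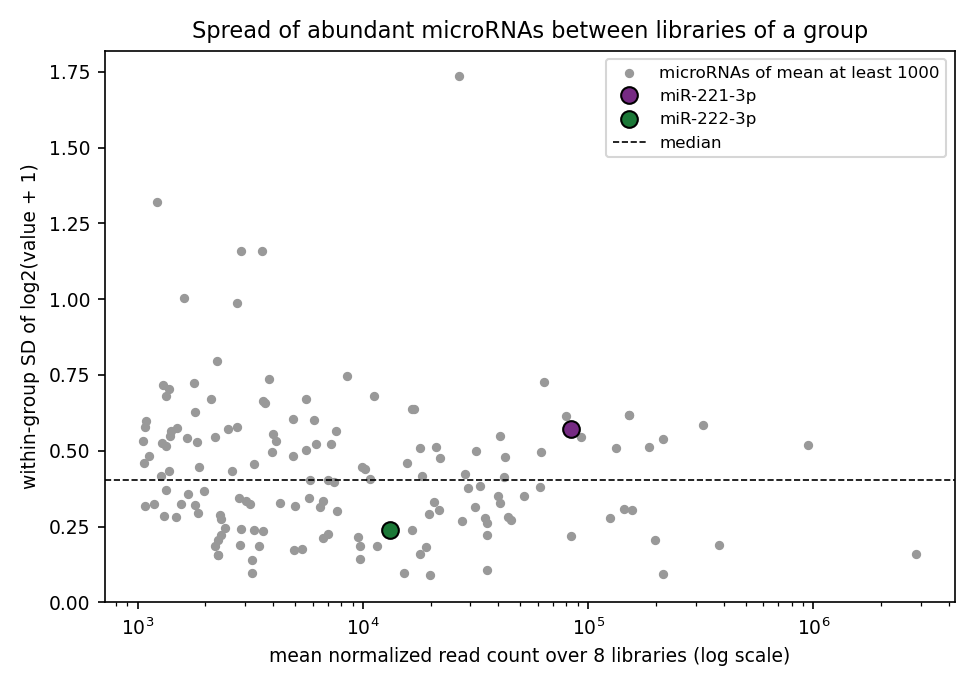
Within-group SD of log2(value + 1) (vertical axis, from 0) against the mean normalized read count over 8 libraries (horizontal axis, log scale) for 152 microRNA features of mean at least 1000, with their median SD of 0.41 as a dashed line. miR-221-3p lies above the median at 0.57 and miR-222-3p below it at 0.24.

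Likeness between patterns was described by Pearson's r of log2(value + 1) over the 8 libraries, which share 4 groups and the same scaling. miR-221-3p had r = 0.087 with miR-222-3p and 0.31 with miR-221-5p, while miR-222-3p and miR-222-5p had r = 0.68. Among 385 other microRNA features of mean at least 50, those most like miR-221-3p were miR-5117-3p (0.77), miR-3963 (0.76), miR-720 (0.71, a sequence since assigned to a transfer RNA), miR-181d-5p (0.65) and miR-30d-3p (0.64). Their levels varied less, from 3062 to 4749 for miR-5117-3p and from 906 to 1698 for miR-3963. Those most like miR-222-3p were miR-130b-5p (0.92), let-7a-2-3p (0.88), miR-543-3p (0.86), miR-496-3p (0.86) and miR-224-5p (0.85). miR-224-5p, also on chromosome X, held 1045 and 1063 in KO hypoxia, 1011 and 506 in KO normoxia, 520 and 685 in WT hypoxia, and 582 and 357 in WT normoxia, with the same low KO library (normoxia number 2) as miR-222-3p.

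No other microRNA feature lies near the pair on chromosome X of the deposited table. The nearest microRNA features are miR-1198-3p and miR-1198-5p, which end 11339104 and 11339142 bases before miR-221-3p begins, and miR-3110-5p, which begins 16839542 bases after miR-222-5p ends. miR-1198-5p, at 339 to 836 over the libraries, had a log2 difference of 0.33 (SE 0.33) for KO minus WT in hypoxia, and miR-3110-5p, at 29 to 51, gave 0.05 (SE 0.43). Of 75 other microRNA features on chromosome X, 45 could be tested, and 0 passed in either direction in any of the 7 comparisons (limma). Their median log2 difference for KO minus WT in hypoxia was −0.01, beside −0.04 over all features, and 0.27, beside 0.02, for the difference between the responses to hypoxia. The latter median is not particular to chromosome X. It was 0.51, 0.37 and 0.39 for the growth-promoting, growth-restraining and AP-1 or NF-kappaB lists described below. For the fibroblast features it was 0.15 and for the haematopoietic features −0.33. miR-374-5p, the most abundant of the chromosome X features at 12338 to 24614, had 0.24 (SE 0.24, limma adjusted p = 0.967) for KO minus WT in hypoxia and −0.79 (SE 0.24, limma adjusted p = 0.324) in normoxia. miR-652-3p and miR-450a-5p, next in abundance, gave −0.11 (SE 0.41) and −0.17 (SE 0.78) for KO minus WT in hypoxia.

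Other microRNAs of the same processes were read beside the pair. Of 24 listed features of growth-promoting microRNAs (the miR-17 to miR-92a cluster, miR-106b, miR-93, miR-25, miR-21, miR-31 and miR-155), 23 were tested and 0 passed in either direction in any of the 7 comparisons (limma). Their median log2 difference for KO minus WT was 0.09 in hypoxia and −0.48 in normoxia, where the medians over all features were −0.04 and −0.06. The latter cover every kind of small RNA. In normoxia the fibroblast and the chromosome X microRNAs had medians below 0 too, at −0.27 and −0.20. miR-31-5p, at 177297 to 247466, had 0.33 (SE 0.25) and miR-19b-3p, at 161846 to 252383, had 0.05 (SE 0.28) for KO minus WT in hypoxia. Growth-restraining microRNAs (miR-34, miR-15 and miR-16, miR-195, miR-497, miR-143, miR-145 and miR-26) had 25 of 26 features tested, again 0 passing in either direction in any of the 7 comparisons, with medians of −0.21 in hypoxia and −0.60 in normoxia for KO minus WT. Among them miR-143-3p gave −0.23 (SE 0.45), miR-26a-5p −0.49 (SE 0.41) and miR-145-5p −0.47 (SE 0.40) in hypoxia.

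The microRNAs known, like the pair, to respond to AP-1 or NF-kappaB (miR-21, miR-31, miR-146a, miR-146b and miR-155) had 8 of 9 features tested, 0 passing in either direction in the same 7 comparisons (limma). For KO minus WT in hypoxia their median was 0.18, with 6 of 8 above 0, beside −0.04 over all features. In normoxia it was −0.15, with 0 of 8 above 0, beside −0.06. Other microRNA lists also lay mostly below 0 in normoxia. Above 0 there were 1 of 23 growth-promoting, 1 of 25 growth-restraining, 0 of 16 fibroblast and 12 of 45 chromosome X features. In hypoxia these counts were 16, 6, 5 and 21. For KO minus WT in hypoxia miR-21-5p, the most abundant of the list, gave −0.12 (SE 0.28). miR-146b-5p, which ranged from 6668 to 52077 over the libraries, gave −0.58 (SE 1.14).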

How the data were processed

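The authors deposited 1 table of normalized read counts, a score in whole numbers per small RNA feature and library. Per the labels' protocols, miRNeasy columns gave the RNA and the NEBNext set for SOLiD the libraries. The sources used here name no aligner, build or normalization. Differences came from limma 3.58.1 (R 4.3.3) with an intensity trend and 1 mean for each of the 4 groups, on log2(value + 1) of 1540 features with at least 10 in at least 2 libraries (579 microRNAs, all 4 arms among them), with 4 residual and 5.64 prior degrees of freedom. Benjamini-Hochberg adjustment ran over these features, a call was an adjusted p under 0.05, and the fit was tested on simulated data. Ratios within libraries (+ 1) and shares were compared by exact permutation (scipy 1.17.1). TMM factors, a scaling by the trimmed mean of log ratios, were used only in an alternative. Intervals treat normalized counts as reads. Binomial intervals are exact (Clopper-Pearson). The members, lists and tests were chosen with earlier results of these data known. Features named were the 4 arms, miR-210-3p, the 5 features most like each 3p arm, the nearest microRNAs on chromosome X and up to 3 most abundant members of each list. miR-224-5p is described per library by choice after its values were seen.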

Additional observations from a re-analysis of the deposited data

How the results depend on the processing

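Every one of the 4 arms stayed uncalled in each of the 7 comparisons under every alternative run: a pseudocount of 0.5 or 8, features filtered at a mean of 50 or not at all, scaling by quantiles, by TMM factors or to the microRNA total, a fit without the intensity trend or on microRNAs alone, the replicate number as a block, the groups of a comparison alone and each library left out. The groups alone could not give the KO change minus the WT change or the averages. For miR-221-3p, KO minus WT in hypoxia ran from −1.14 to −0.77 (quantile normalization) over the settings and from −1.34 to −0.94 over the libraries left out, with limma adjusted p-values of 0.217 to 1.00, and the KO change minus the WT change ran from −1.40 to −1.32 and from −1.92 to −0.72. For KO minus WT in normoxia miR-221-3p gave 0.55 with quantile normalization and 0.41 scaled to the microRNA total, and averaged over both oxygen levels −0.11 and −0.29 under the same settings. Small differences changed sign. With quantile normalization they were −0.056 for miR-222-3p and −0.016 for miR-221-5p (WT hypoxia minus normoxia), −0.024 for miR-222-5p (KO hypoxia minus normoxia), 0.031 for miR-222-3p (KO minus WT in normoxia), 0.0022 for miR-221-5p (KO change minus WT change), and −0.040 for miR-221-3p and −0.030 for miR-222-5p (hypoxia over both genotypes). Scaled to the microRNA total, the same differences were −0.040, −0.011, −0.071, 0.23, and for the last pair −0.065 and −0.082, except that of miR-221-5p, which kept its sign. That scaling moves the median of all features by 0.15 and 0.24 for KO minus WT in hypoxia and normoxia, by −0.14 for KO hypoxia minus normoxia, and by 0.20 and −0.10 for the genotype and hypoxia averages. With TMM factors miR-222-3p gave 0.022 (KO minus WT in normoxia) and miR-222-5p −0.0093 (hypoxia over both genotypes). The cause was not tested.

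Leaving out each library in turn, differences that crossed 0 ran as follows. For WT hypoxia minus normoxia they ran from −0.040 to 0.084 (miR-222-3p), −0.15 to 0.25 (miR-221-5p) and −0.17 to 0.11 (miR-222-5p), and for KO hypoxia minus normoxia from −0.33 to 0.21 (miR-221-5p) and −0.20 to 0.34 (miR-222-5p). KO minus WT in normoxia ran from −0.43 to 0.78 (miR-221-3p), −0.32 to 0.31 (miR-222-3p) and −0.078 to 0.46 (miR-222-5p), and in hypoxia from −0.13 to 0.40 (miR-221-5p). The KO change minus the WT change ran from −0.38 to 0.16 (miR-221-5p) and −0.17 to 0.37 (miR-222-5p), and hypoxia over both genotypes from −0.26 to 0.34 (miR-221-3p), −0.14 to 0.13 (miR-221-5p) and −0.11 to 0.16 (miR-222-5p). By oxygen, the log2 ratio of miR-221-3p to miR-222-3p ran from −0.46 to 0.11, that of miR-221-3p to miR-221-5p from −0.21 to 0.29 and the summed share from −0.30 to 0.18 percentage points. By genotype the share ran from −0.42 to 0.023 and the log2 ratio of miR-222-3p to miR-222-5p from −0.20 to 0.00058.

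By the labels, libraries of the same number share only a number, and whether they share a culture or a day is not stated. Their deviations correlated with r from 0.15 to 0.55 between groups, and with the replicate block KO minus WT in hypoxia stayed at −1.14 for miR-221-3p (SE 0.38, limma adjusted p = 0.217), with 0 arms called in any comparison. The KO change minus the WT change of miR-221-3p then had an unadjusted p of 0.0336 (limma adjusted p = 0.852), and 0.0395 scaled to the microRNA total (limma adjusted p = 0.998). In these settings 1 of 4 arms in place of 0 was under 0.05 unadjusted. The share of all features under 0.05 unadjusted is not given here for these settings, so that count has no background beside it. Features called over the whole table with the block numbered 8 for WT hypoxia minus normoxia (0 without it), 91 for the genotype over both oxygen levels (2 without it) and 3 for hypoxia over both genotypes (0 without it). With 2 libraries a group, the depth does not limit the 3p arms, while miR-222-5p, at 71 to 108 counts, is limited by counting too.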
